A study of Homo sapiens with 6 samples.

Results

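SAMHD1 is the gene of a triphosphohydrolase that cuts deoxynucleoside triphosphates (dNTPs), the building blocks of DNA, into deoxynucleosides and triphosphate. Its row in the deposited count table is described here, 1 gene of 55765 in the table and of 13053 that passed a filter on low counts. The gene was selected on its counts in these same libraries, with the treatment difference known, so its own fold change is given as a description with no test. The table held 6 libraries of OCI-AML2, a line of human acute myeloid leukaemia cells, sequenced from the 3′ ends of messenger RNAs. The 3 MRT199665 libraries came from cells given 100 nM of this compound for 48 h, and the 3 vehicle libraries from cells given the carrier alone for the same time. All were cultured, by the labels, as clones derived from single cells. MRT199665 inhibits the MARK kinases, by the labels, and the SIK kinases are further known targets. By its title, the series belongs to work on phosphorylated MEF2C, a transcription factor, and on chemotherapy resistance of this leukaemia.

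SAMHD1 is active as a tetramer that forms when guanine nucleotides and dNTPs bind to it, and it keeps dNTP pools low, above all in cells that do not divide. It is abundant in monocytes and macrophages, where it limits infection by HIV, and its loss causes the inflammatory disorder Aicardi-Goutieres syndrome. The enzyme also hydrolyses the active triphosphate of cytarabine, a nucleoside drug that is central to the treatment of acute myeloid leukaemia. Cyclin-dependent kinases phosphorylate a threonine near its C terminus in dividing cells, a change known to lower its antiviral activity. Messenger RNA was measured here, and neither the protein, its phosphorylation nor dNTP levels were.

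Total counts ranged from 5871097, in MRT199665 replicate 2, to 14308650, in MRT199665 replicate 3. The first principal component (46.75% of the variance) did not separate the groups, and it had MRT199665 replicate 2 at 1 end and vehicle replicate 2 at the other. SAMHD1 is therefore also given without these libraries below. The second component (26.25% of the variance) did separate the groups, with MRT199665 libraries from -26.4 to -5.95 and vehicle libraries from 0.954 to 35.3. Whether libraries of 1 group were grown as separate cultures is not in the labels, and the spread behind each p-value may therefore be technical. Of 9 myeloid genes taken to check the cell line, CSF3R, MPO, SPI1 and CD33 averaged between 41.2 and 163 CPM (a gene's count relative to the scaled size of its library) with MRT199665 and between 32.9 and 124 CPM with vehicle. LYZ, ITGAM and ANPEP were low, averaging 3.60, 2.06 and 0.937 CPM with MRT199665 and 1.51, 1.02 and 1.72 CPM with vehicle. None of the 7 tested members was called by edgeR, DESeq2 or limma-voom, and 6 had an unadjusted p under 0.05, 5 higher and 1 lower. The share of all genes tested under that unadjusted threshold is not given here. Counts of unadjusted p, here and below, are therefore not read as an excess. CEBPA and CD68 had a count of 0 in all 6 libraries. Of the genes that define other lineages, the B cell gene MS4A1, the T cell gene CD2 and the globin genes HBA1 and HBB also had 0. No source used here gives the annotation of the counting. For any count of 0, an absent transcript and reads lost in counting therefore cannot be told apart.

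SAMHD1 messenger RNA was 3.38-fold higher with MRT199665. Its counts were 1975, 732 and 2260 in MRT199665 replicates 1, 2 and 3, against 491, 488 and 445 in vehicle replicates 1, 2 and 3. Scaled to library size, these were 149, 124 and 160 CPM with MRT199665 and 41.2, 41.9 and 45.3 CPM with vehicle. Every treated library lay above every vehicle library, and the lowest treated value was still 2.73 times the highest vehicle value. The means were 144 ± 18.7 CPM in treated and 42.8 ± 2.20 CPM in vehicle libraries (SD, n = 3 per group), a log2 fold change of 1.76 ± 0.13 (SE, edgeR). The 9 possible ratios of 1 treated to 1 vehicle library ran from 2.73 to 3.89. More cells with the transcript and more of it per cell cannot be told apart in such bulk libraries.

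The libraries of a group did not spread equally. The coefficient of variation was 12.9% with MRT199665, while counting alone gave 2.10% to 3.70% in those libraries. Among the vehicle libraries it was 5.14%, close to the 4.51% to 4.74% that counting gave. The 95% Poisson interval of MRT199665 replicate 2, the shallowest library, was 115 to 133 CPM and lay below those of replicate 1 (143 to 156 CPM) and replicate 3 (154 to 167 CPM). In the vehicle libraries the intervals overlapped, within 37.6 to 49.7 CPM. The intervals cover counting error only. Without MRT199665 replicate 2 the log2 fold change was 1.85 ± 0.11 (SE), and without both libraries numbered 2 it was 1.84 ± 0.13 (SE).

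**Figure D1:**
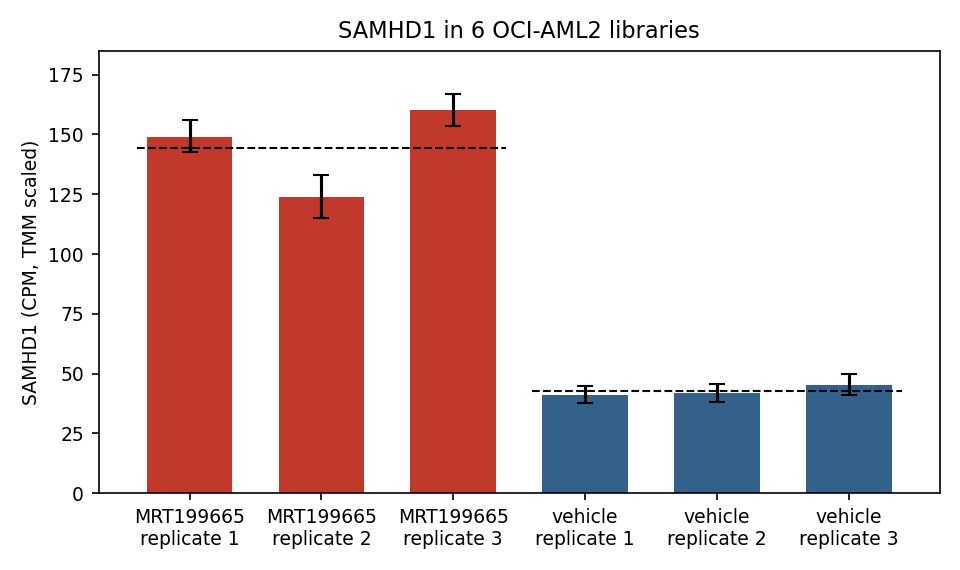
SAMHD1 level (CPM, linear axis) in each of the 6 libraries. Bars are single libraries, whiskers their 95% Poisson intervals and dashed lines the group means; the 3 MRT199665 libraries stood between 124 and 160 CPM and the 3 vehicle libraries between 41.2 and 45.3 CPM.

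The size of the difference was set against genes of similar abundance on average over the 6 libraries. SAMHD1 itself was below this average in the vehicle libraries (41.2 to 45.3 CPM) and above it with MRT199665 (124 to 160 CPM). Counting error within a group is therefore not alike. A total of 523 other genes had an average log2 CPM within 0.25 of that of SAMHD1, which corresponds to 78.8 to 111 CPM. Their median log2 fold change was -0.02 and their median absolute log2 fold change 0.15, against medians of 0.01 and 0.20 over all 13053 genes tested. From the 5th to the 95th percentile they ran from -0.43 to 0.37. None had a log2 fold change above that of SAMHD1. The highest was 1.19, of CCR2, the receptor for the monocyte chemoattractant CCL2. In absolute size 1 gene was above SAMHD1, RETN (resistin), whose log2 fold change was -2.09. Across all tested genes SAMHD1 stood in place 48 from the top by log2 fold change.

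Of the 523 genes, 5 rose (0.956%) and 5 fell (0.956%) at an adjusted p under 0.05, against 0.85% and 0.398% of all genes tested (edgeR quasi-likelihood test, Benjamini-Hochberg). Those that rose were CCR2, SLA, RNASEH2C, NDRG2 and CCDC88B. SLA, an adaptor that dampens antigen receptor signalling, had a log2 fold change of 1.05, and RNASEH2C, a subunit of ribonuclease H2, one of 0.99. Groups that did not overlap were found for 55 of the 523 in the higher direction (10.5%) and 73 in the lower (14.0%), against 11.4% and 10.8% of all genes tested. The biological coefficient of variation that edgeR fitted for SAMHD1, an estimate of the spread between libraries beyond counting, was 0.134. Its median in these genes was 0.133, and 268 of the 523 had a smaller one. The fit draws each gene's value toward those of genes of similar abundance. This likeness is therefore partly built in and does not show that the gene's own spread was ordinary. The pair just above SAMHD1 in abundance, TTLL12 and GPCPD1, had log2 fold changes of 0.09 and 0.11, and the pair just below, WWP2 and GALK1, of 0.12 and 0.03.

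**Figure D2:**
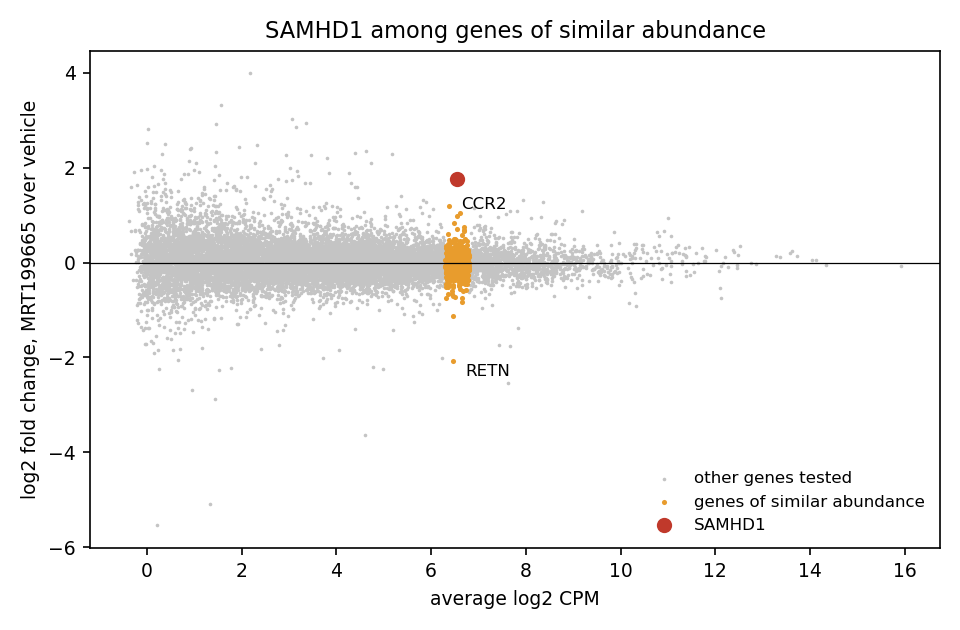
Log2 fold change (MRT199665 over vehicle) against average log2 CPM for the 13053 genes tested. SAMHD1 (red) lies above all 523 genes of similar abundance (orange), of which CCR2 had the highest value, 1.19, and RETN the lowest, -2.09.

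The counts of SAMHD1 were also set against those of single enzymes of the same pathway in the same library, a measure that needs no scaling between libraries. Only its change between libraries has a meaning, since the level of such a ratio depends on how well each 3′ end is captured. DCK encodes deoxycytidine kinase, which adds the first phosphate to cytarabine, the opposite end of the pathway from the triphosphate that SAMHD1 cuts. There were 23.5, 19.8 and 25.7 SAMHD1 counts per DCK count in MRT199665 replicates 1, 2 and 3, against 6.46, 7.39 and 8.40 in vehicle replicates 1, 2 and 3. The groups did not overlap, and the mean log2 ratio was 4.51 ± 0.19 with MRT199665 and 2.88 ± 0.19 with vehicle (SD, n = 3 per group), a difference of 1.63.

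DCK itself differed little. Its level was 6.34, 6.25 and 6.24 CPM in the MRT199665 libraries and 6.38, 5.66 and 5.39 CPM in the vehicle libraries. Its log2 fold change was 0.11 ± 0.17 (SE, edgeR adjusted p = 0.826), from between 37 and 88 counts per library. The log2 ratio to CDA, which deaminates and so inactivates cytarabine, was 2.65 ± 0.11 with MRT199665 and 1.04 ± 0.24 with vehicle (SD, n = 3 per group). For RRM2 and RRM1, the small and large subunits of ribonucleotide reductase, which makes the dNTP precursors, the differences in log2 ratio were 1.79 and 1.83. The ratio to RRM1 had a wide spread, with SDs of 0.62 with MRT199665 and 0.67 with vehicle. RRM1 itself ranged from 73.8 to 137 CPM in the MRT199665 libraries and from 65.7 to 163 CPM in the vehicle libraries. For the ratio to RRM2 the SD was 0.48 with MRT199665 and 0.15 with vehicle. In each of the 4 ratios the treated libraries were above the vehicle libraries, as the SAMHD1 counts in the numerator were.

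**Figure D3:**
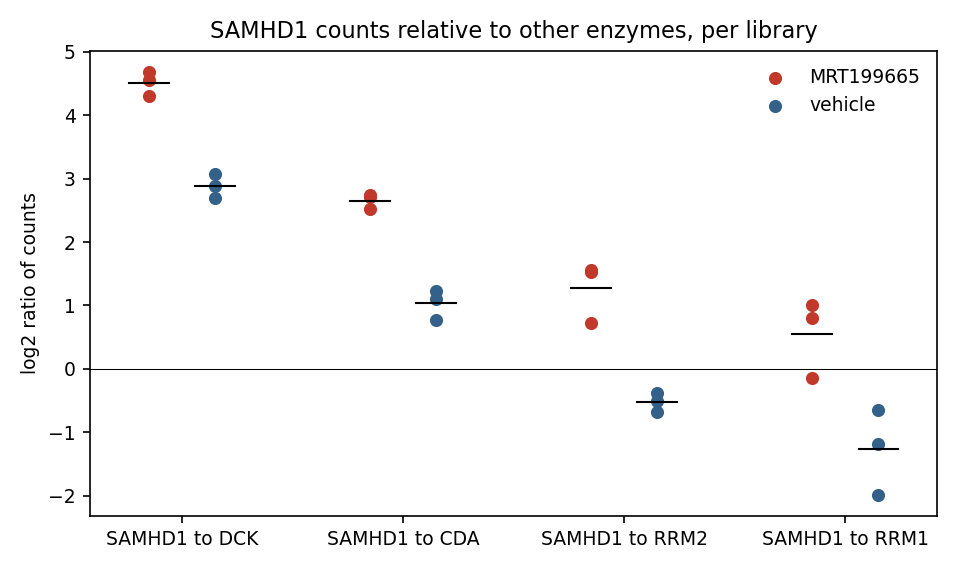
Log2 ratio of SAMHD1 counts to those of DCK, CDA, RRM2 and RRM1 in each library, MRT199665 in red and vehicle in blue. Points are single libraries and bars group means; for DCK the ratio was 4.51 ± 0.19 with MRT199665 and 2.88 ± 0.19 with vehicle (SD, n = 3 per group).

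Genes around SAMHD1 in biochemistry and innate immunity were taken as 7 lists of 118 genes in all, of which 104 other than SAMHD1 were tested. Of these, 2 rose and none fell by the edgeR test, that is 1.92% and 0%, against 0.85% and 0.398% of all genes tested. With DESeq2 and limma-voom no member fell either. The median log2 fold change of the 104 was 0.01, the same as over all genes tested. No tested member reached the log2 fold change of SAMHD1.

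For the supply of dNTPs and the handling of cytarabine, 23 of 26 genes were tested and none was called by edgeR, DESeq2 or limma-voom, with 1 unadjusted p under 0.05. The list's median log2 fold change was -0.04, with 10 positive and 13 negative. The uptake transporter SLC29A1 was at 39.2 ± 8.39 CPM in treated and 39.9 ± 8.45 CPM in vehicle libraries (SD, n = 3 per group). CDA had a log2 fold change of 0.14 ± 0.18 and RRM2 of -0.03 ± 0.16 (SE). NT5M, a mitochondrial nucleotidase that removes phosphate from deoxynucleotides, had the lowest p of the list. Its levels were 35.0, 28.7 and 32.2 CPM in the MRT199665 libraries and 35.8, 57.8 and 54.3 CPM in the vehicle libraries (edgeR adjusted p = 0.171). Without vehicle replicate 1, whose value was near those of the treated libraries, NT5M was called lower (edgeR adjusted p = 0.0323), and likewise with no low-count filter (0.00919). NT5C3A, a cytosolic nucleotidase for pyrimidine monophosphates, was next (edgeR adjusted p = 0.354). Among 8 tested genes of other enzymes that clear nucleotides, none was called by edgeR, DESeq2 or limma-voom, and none had an unadjusted p under 0.05. In that list DCTPP1, which hydrolyses dCTP and modified forms of it, had a log2 fold change of 0.17 ± 0.21 (SE).

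A list around the phosphorylation of the SAMHD1 threonine held cyclin-dependent kinases, cyclins, subunits of phosphatase PP2A and 4 inhibitors of the kinases (CDKN1A, CDKN1B, CDKN2C and CDKN2D). Of its 20 genes 18 were tested and none was called by edgeR, DESeq2 or limma-voom. An unadjusted p under 0.05 was found for 6 of them, 2 higher and 4 lower, a count with no share over all genes beside it. CDK1, a kinase of the mitotic cell cycle, was at 39.0, 46.3 and 40.4 CPM in the MRT199665 libraries and 59.1, 49.3 and 52.2 CPM in the vehicle libraries. CCNA2, the cyclin A subunit that pairs with CDK1 and CDK2, was at 31.6 ± 2.27 CPM in treated and 41.0 ± 1.69 CPM in vehicle libraries (SD, n = 3 per group). For both genes the groups did not overlap, but neither passed the test (edgeR adjusted p = 0.235 for CDK1 and 0.179 for CCNA2). CDK6, a kinase of the G1 phase, pointed the other way. It was at 263, 216 and 244 CPM in the MRT199665 libraries and 152, 188 and 184 CPM in the vehicle libraries (edgeR adjusted p = 0.149). CDK2 had a log2 fold change of -0.21 ± 0.11 (SE, edgeR adjusted p = 0.421).

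SAMHD1 is 1 of the genes mutated in Aicardi-Goutieres syndrome. Of 13 tested genes of this disorder and of nucleic acid sensing, 1 rose and none fell by edgeR. Of all genes tested, 0.85% rose and 0.398% fell. In the list, 4 had an unadjusted p under 0.05, 2 in each direction. The member that rose was RNASEH2C. Its levels were 107, 164 and 102 CPM in the MRT199665 libraries and 61.2, 66.0 and 60.1 CPM in the vehicle libraries. This was a 1.99-fold difference (edgeR adjusted p = 0.0454), and MRT199665 replicate 2 was far above the other treated libraries. The call ended when MRT199665 replicate 1 or 3 was left out (edgeR adjusted p = 0.0749 and 0.0978), and likewise for vehicle replicates 1, 2 and 3 (0.0871, 0.0919 and 0.237). Without MRT199665 replicate 2 it held, with a log2 fold change of 0.74 (edgeR adjusted p = 0.0272). The other subunits of ribonuclease H2 did not pass the test, with log2 fold changes of -0.41 ± 0.14 for RNASEH2A and -0.00 ± 0.13 for RNASEH2B (SE). TREX1, a DNA exonuclease, was at 5.80 ± 0.442 CPM in treated and 4.10 ± 0.492 CPM in vehicle libraries (SD, n = 3 per group, edgeR adjusted p = 0.272).

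Interferon induces SAMHD1 in some cell types, and the pathway's signalling genes were taken as a further list. Of 15 tested, 1 rose and none fell by edgeR, against 0.85% and 0.398% of all genes tested. The same calls came from limma-voom, while DESeq2 called 2 higher, TYK2 and IRF7. An unadjusted p under 0.05 by edgeR was found for 3, TYK2, IRF7 and IRF1, the last pair named after their values were seen. TYK2, a kinase bound to the type I interferon receptor, was at 25.6, 31.6 and 28.5 CPM in the MRT199665 libraries and 16.6, 18.6 and 15.8 CPM in the vehicle libraries. It was 1.67-fold higher (edgeR adjusted p = 0.0454). No single library could be dropped without the call of TYK2 ending. Without MRT199665 replicates 1, 2 and 3 the edgeR adjusted p was 0.0892, 0.0978 and 0.209, and without vehicle replicates 1, 2 and 3 it was 0.0901, 0.0811 and 0.255. IRF7 and IRF1, transcription factors of interferon responses, did not pass the edgeR test. IRF7 was at 9.74, 12.7 and 8.93 CPM in the MRT199665 libraries and 5.70, 6.43 and 5.19 CPM in the vehicle libraries, without overlap (log2 fold change 0.83 ± 0.19, SE, edgeR adjusted p = 0.0895). IRF1 had a log2 fold change of -0.54 ± 0.16 (SE, edgeR adjusted p = 0.170). The next list was drawn up under the name of retroviral restriction factors, to which SAMHD1 belongs, and it also held TREX1. Of 17 tested genes none was called by edgeR, DESeq2 or limma-voom, and 2 had an unadjusted p under 0.05, TREX1 and IFITM2. IFITM2, a membrane protein that blocks viral entry, had a log2 fold change of 0.31 ± 0.11 (SE, edgeR adjusted p = 0.224).

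The last list held proteins of stalled replication forks, where SAMHD1 acts, and of its degradation by viral Vpx. Of 11 tested genes none was called by edgeR, DESeq2 or limma-voom, 2 had an unadjusted p under 0.05, and the median log2 fold change was -0.12. CHEK1, a checkpoint kinase, had a log2 fold change of -0.31 ± 0.12, and CUL4B, a scaffold of ubiquitin ligases, of -0.37 ± 0.16 (SE). Their edgeR adjusted p values were 0.275 and 0.331.

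**Figure D4:**
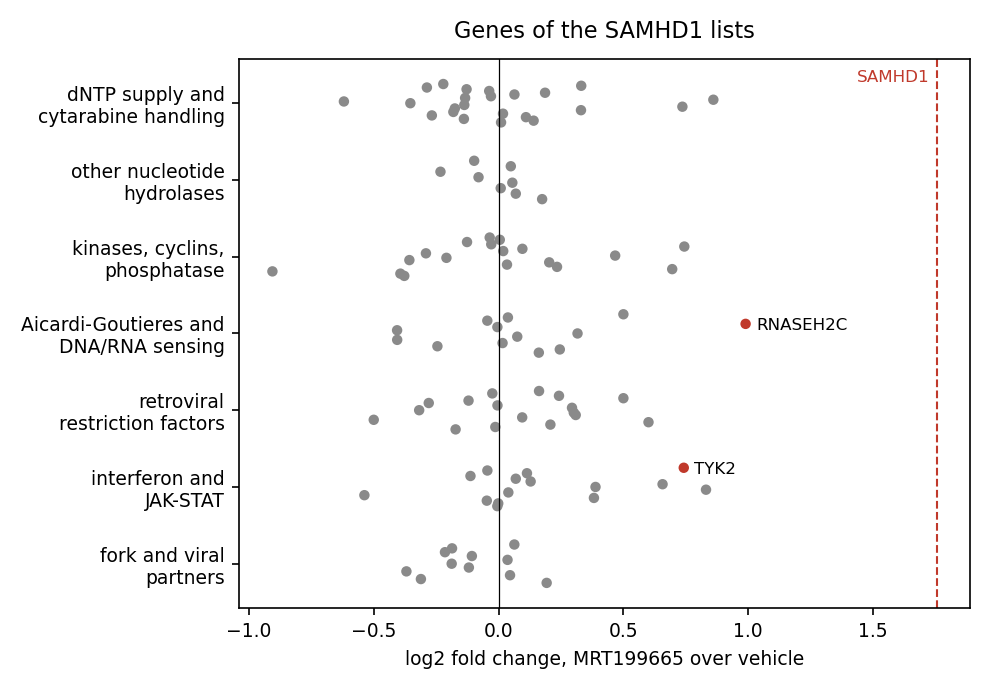
Log2 fold change (MRT199665 over vehicle) of each tested member of the 7 lists, 1 point per gene. Red points passed the edgeR test at an adjusted p under 0.05 (RNASEH2C at 0.99 and TYK2 at 0.74), and the dashed line marks SAMHD1 at 1.76.

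SAMHD1 lies on chromosome 20, on the minus strand, between TLDC2 and RBL1 in GENCODE release 29, a reference of a later build than the hg19 named for these counts. TLDC2, on the opposite strand, overlaps the 3′ end of SAMHD1 in that annotation. TLDC2 was also higher, at 6.95, 8.79 and 9.43 CPM in the MRT199665 libraries and 4.11, 1.89 and 2.54 CPM in the vehicle libraries. The groups did not overlap, and the difference was 2.92-fold (edgeR adjusted p = 0.0454). Leaving out 1 library ended the call of TLDC2 for each MRT199665 library (edgeR adjusted p = 0.0899, 0.0978 and 0.234 for replicates 1, 2 and 3) and for vehicle replicates 2 and 3 (0.103 and 0.234). No source used here states the strand setting of the counting, so reads of these overlapping genes cannot be told apart. TLDC2 counts came to between 4.66% and 7.10% of the SAMHD1 counts in the MRT199665 libraries and between 4.51% and 9.98% in the vehicle libraries. Taking all TLDC2 counts away from SAMHD1 changed the mean log2 difference in CPM from 1.75 to 1.76, and adding them made it 1.74. With TLDC2 counts so few beside those of SAMHD1, neither step could move it far. Reads dropped for lying in both genes would be in neither count, so their share cannot be seen here.

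The other close neighbours did not pass the test. RBL1, which encodes the retinoblastoma-related protein p107, had a log2 fold change of 0.10 ± 0.16 (SE, edgeR adjusted p = 0.829). SOGA1 and MROH8 had log2 fold changes of -0.31 ± 0.14 and -0.19 ± 0.44 (SE), with edgeR adjusted p values of 0.361 and 0.900. GENCODE lists 27 transcripts of SAMHD1, of which 6 are typed as protein coding, and the table gives 1 count for the gene as a whole.

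The sequence around the SAMHD1 start is shown because the study concerns a transcription factor, MEF2C, and motifs can be read from it, although no binding was measured. It is the RefSeq sequence of chr20:36951659-36951958 (GRCh38.p14, minus strand), from 250 bases before to 50 bases after the annotated start. Capitals mark the matches to CCAAT, to TGCGCA and to GAGGAA, the last on the opposite strand as TTCCTC.

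SAMHD1 promoter: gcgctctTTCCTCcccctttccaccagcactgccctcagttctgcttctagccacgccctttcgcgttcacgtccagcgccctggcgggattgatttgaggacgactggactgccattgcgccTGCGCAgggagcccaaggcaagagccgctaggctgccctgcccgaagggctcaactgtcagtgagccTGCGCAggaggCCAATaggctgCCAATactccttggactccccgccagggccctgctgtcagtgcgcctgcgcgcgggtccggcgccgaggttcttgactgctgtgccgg

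In this window CCAAT, the box bound by NF-Y, occurred 2 times, and 34.6% of 35116 RefSeq promoters of the same length held at least 1 match on either strand. TGCGCA, part of the motif of NRF1, occurred 2 times and was held by 8.24% of promoters. GAGGAA, the core bound by PU.1 (the product of SPI1), occurred 1 time and was held by 27.9%. No match was found to CTAAAAATA, a form of the MEF2 motif (held by 0.504% of promoters), the interferon response core GAAANNGAA (8.11%), the AP-1 motif TGANTCA (7.71%), the cAMP response motif TGACGTCA (1.85%) or the GC box GGGCGG (45.0%). These 8 motifs were searched on both strands, and none of the marked matches overlap each other. The window held 22 CpG dinucleotides, against a median of 14 over all promoters, and 65.7% of its bases were G or C, against a median of 58.7%.

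Genes were ranked by how closely their levels over the 6 libraries followed those of SAMHD1. Among 7904 genes with an average log2 CPM of at least 3, the Pearson correlation of log2 CPM with SAMHD1 was over 0.95 for 114 and under -0.95 for 81. These correlations are a description over 6 libraries, which fall into the treatment groups, and a high value mostly says that a gene separated them. The closest were VPS4B (r = 0.998), CREBBP (0.996), HLA-DRB1 (0.996), FYB (0.994), CIITA (0.993) and PHF20L1 (0.992). They differed in the size of the change. VPS4B, an ATPase of membrane sorting, CREBBP, a histone acetyltransferase, and PHF20L1 had log2 fold changes of 0.19, 0.38 and 0.23 and did not pass the test (edgeR adjusted p = 0.406, 0.134 and 0.331).

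HLA-DRB1, a class II antigen-presenting chain, was close to SAMHD1 in size as well. It was at 32.5, 26.0 and 31.1 CPM in the MRT199665 libraries and 8.47, 8.92 and 10.8 CPM in the vehicle libraries. As for SAMHD1, MRT199665 replicate 2 was the lowest treated library and vehicle replicate 3 the highest vehicle library. HLA-DRB1 was picked for its likeness to SAMHD1 over these libraries, so this shared order follows in part from the choice. Its log2 fold change was 1.68 ± 0.16 (SE, edgeR adjusted p = 0.00241), and reads of this gene may be split with its close copies. FYB, an adaptor of leukocyte adhesion, rose with a log2 fold change of 1.17 ± 0.14 (SE, edgeR adjusted p = 0.00453). CIITA, the regulator of class II genes, rose by 0.94 ± 0.14 on the log2 scale (SE, edgeR adjusted p = 0.0162). Its call ended when MRT199665 replicate 1 or 3 was left out (edgeR adjusted p = 0.0711 and 0.135) and for vehicle replicates 2 and 3 (0.0587 and 0.127). At the other extreme were RBAK (r = -0.997), a zinc finger repressor, and the metallothionein genes MT1G (-0.994) and MT1E (-0.993). MT1G and MT1E fell, while RBAK, with a log2 fold change of -0.44 ± 0.12 (SE), did not pass the test (edgeR adjusted p = 0.145).

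**Figure D5:**
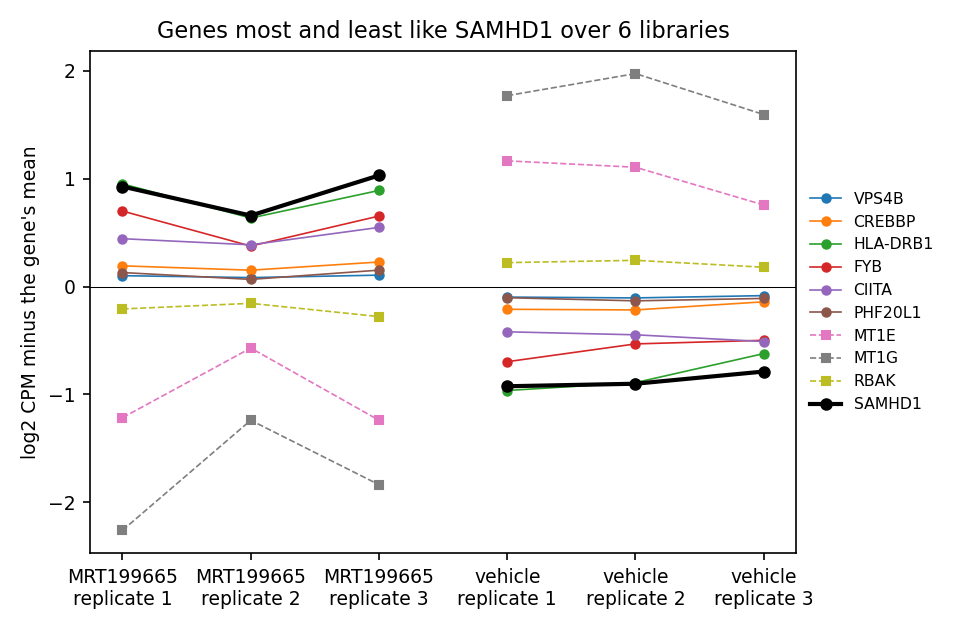
Log2 CPM minus the gene's own mean in each library for SAMHD1 (black), the 6 genes most like it (circles) and the 3 least like it (squares, dashed). Lines join the libraries of a group only to trace a gene; HLA-DRB1 (r = 0.996) ran close to SAMHD1, while VPS4B (r = 0.998) had a log2 fold change of only 0.19.

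SAMHD1 is a gene that monocytes and macrophages express highly, and markers of those cells moved in the same direction. Of 14 monocyte and macrophage genes, 9 were tested, and 7 rose by edgeR, against 0.85% of all genes tested. These were CSF1R, MPEG1, CD86, CYBB, TYROBP, MS4A6A and CTSB. The summed level of the 14 was between 937 and 985 CPM in the MRT199665 libraries and between 423 and 483 CPM in the vehicle libraries. The defining markers CD163, VCAN and FCN1 stayed at 0.138 CPM or less in both group means, and CD14 averaged 0.845 CPM in treated and 0.565 CPM in vehicle libraries. All 7 also rose by DESeq2, by limma-voom and without both libraries numbered 2. Without MRT199665 replicate 3 TYROBP was not called (edgeR adjusted p = 0.0643), nor were TYROBP and CTSB without vehicle replicate 3 (0.0971 and 0.0656). FCGR1A, an Fc receptor, had a log2 fold change of -0.07. The rise of the 7 markers was known before they were chosen, and their part in the SAMHD1 difference was not tested. Of 9 T and NK cell genes, 2 were tested and TRAC rose, against 0.85% of all genes tested. It averaged 21.7 CPM in treated and 10.4 CPM in vehicle libraries. Its call ended when MRT199665 replicate 1 or 3 or vehicle replicate 3 was left out (edgeR adjusted p = 0.0674, 0.118 and 0.105). NKG7, the other tested gene, averaged 9.94 CPM in treated and 6.91 CPM in vehicle libraries, with a log2 fold change of 0.52 ± 0.16 (SE, edgeR adjusted p = 0.172). CD3D averaged 0.219 CPM in treated and 0.390 CPM in vehicle libraries, and CD2, CD3E and CD3G at most 0.0286 CPM in either group. Of the B cell, erythroid and megakaryocyte, and epithelial and fibroblast genes, 8 were tested and none was called by edgeR, DESeq2 or limma-voom, with 3 unadjusted p values under 0.05.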

How the data were processed

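Per the labels' protocols, libraries were made with a Lexogen kit for 3′ messenger RNA. The authors' tools were STAR 2.4, HTSeq 0.6.1 and DESeq2 on hg19, per the submitters' processing notes; no source used here gives the annotation, strand setting or filters. The authors deposited raw counts, whole numbers under gene symbols. Groups and replicate numbers came from the labels.

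The main test was the two-sided quasi-likelihood test of edgeR 4.0.16 (R 4.3.3) with glmQLFit and glmQLFTest after TMM scaling, fitted on group alone. The filterByExpr filter (minimum count 10, minimum total 15) left 13053 of 55765 genes. Adjusted p values are Benjamini-Hochberg over all of them, with calls under 0.05. An SE is the size of the log2 fold change over the root of its F statistic. CPM values are on TMM-scaled totals. Correlations used log2 CPM with a prior count of 2. The fit was tested on simulated data. Alternatives used DESeq2 1.42.0, limma 3.58.1 (voom), other scalings and filters, a replicate block and left-out libraries.

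No libraries of a group were copies of each other (chi-square per degree of freedom at least 8.59). SAMHD1, the lists and the markers were chosen with earlier results of these data known. Genes were named by a rule. It took called members of each list, or the 2 with the lowest p where none was called, and 11 fixed genes of cytarabine, cell cycle and interferon biology. It also took the 6 genes most like and 3 least like SAMHD1 over the libraries, 2 chromosomal neighbours on each side, and 2 genes on each side in abundance. RETN, the genes called in the abundance window and the markers were named beyond it after their values were seen, as were the other ribonuclease H2 subunits. Some genes that the rule took are not reported here. List symbols were matched to older symbols through a RefSeq table, and all 118 had a row. A count of 3, the limit that a count of 0 allows, was between 0.213 and 0.507 CPM.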

Additional observations from a re-analysis of the deposited data

How the results depend on the processing

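The log2 fold change of SAMHD1 lay between 1.66 and 1.85 over 14 alternatives, which were 3 other scalings, no low-count filter, DESeq2, limma-voom, the replicate block, leaving out each library, and leaving out both libraries numbered 2, the last chosen after seeing the data. Counts of genes called moved. No low-count filter gave 373 higher and 271 lower genes and 5 higher and 1 lower list members. DESeq2 gave 217 and 146 genes. Total counts alone gave 1 higher list member, as did leaving out both libraries numbered 2. Leaving out 1 library gave 29 to 78 higher and 20 to 55 lower genes, and 0 to 1 higher and 0 to 1 lower list members. Same-numbered libraries deviated from their group means with correlations of -0.547, -0.467 and 0.0182. None of the 6 deviated most like the library of its own number in the other group. Deviations within a group of 3 are not independent of each other, so these correlations cannot show whether the numbers pair the libraries. With the number as a replicate block 7 genes were higher and 5 lower, 0 list members and 2 monocyte and macrophage genes (CSF1R and CD86) were higher, and the log2 fold change of SAMHD1 was 1.75. For the named genes other than SAMHD1, 467 values kept direction and side of the threshold, 30 lost a call, 2 gained one and 19 changed sign. Reversals were seen only in named genes that did not pass the test. Leaving out 1 library gave ranges of -0.22 to 0.15 for SLC29A1, -0.41 to 0.25 for RRM1, -0.21 to 0.079 for RRM2, -0.0046 to 0.32 for DCTPP1, -0.0058 to 0.20 for RBL1, -0.50 to 0.29 for MROH8, -0.072 to 0.15 for GALK1 and -0.00069 to 0.31 for WWP2. Without both libraries numbered 2, DCTPP1, RBL1, MROH8 and WWP2 turned to -0.16, -0.10, 0.42 and -0.040. RRM1, SLC29A1, RRM2 and CDA were then at -0.69, -0.31, -0.30 and 0.39. The cause of these moves was not tested. Depth, lowest in MRT199665 replicate 2, limits what can be seen for genes at few CPM, such as DCK.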
